A study of Mus musculus with 19 samples.

Results

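Peak lists of 5-hydroxymethylcytosine (5-hmC) from cardiomyocytes (CMCs) of adult hearts under pressure load were compared with those of neonatal hearts, to ask which heart genes that carried 5-hmC in the newborn carried it again after transverse aortic constriction (TAC). The members of the comparison were 4 samples of the 19 in the series, 2 neonatal and 2 TAC, and 15498 autosomal protein-coding genes of 5 kb or more, out of 20021 autosomal protein-coding genes of any length. For each gene and list, the percent of the gene's span that lay under peaks was taken. It was scaled to the mean total length of the 8 peak lists, and the result is called scaled percent. Scaling lowered neonatal and raised TAC values, and a difference in the total amount of 5-hmC between points is not kept on this scale. By mass spectrometry, the study reports a lower total amount in adult than in neonatal CMCs, and a further fall in hypertrophy. How much of such a fall the scaling removed was not tested. A gene was called higher at a point when both replicates of that point exceeded both replicates of the other. Of 374 genes on 7 lists of heart genes, 331 could be compared, 37 were shorter than 5 kb, 5 lay on sex chromosomes and 1 was not found among the curated genes.

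All samples came from CMCs of C57BL/6J mice, male according to the methods of the study, with no genetic change named in the labels. Neonatal CMCs were taken from the ventricles of pups of 1 to 2 days by collagenase digestion, low-speed spins and plating steps that let other cells adhere. TAC CMCs were taken from the left ventricle of adult mice 1 week after surgery by enzymatic perfusion and sedimentation. Adult CMCs, from mice of 2 months that the study calls normal, were taken by the same steps. These adult CMCs served as the reference for what had been lost after birth. E14.5 embryonic CMCs, prepared in the same way as the neonatal cells, served as a further reference. Age, cell preparation and surgery changed together between the neonatal and the TAC samples and cannot be told apart. No sample used here is labelled as sham, and the labels do not say how many hearts each sample held.

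5-hmC is made from 5-methylcytosine by the TET dioxygenases, occurs mostly at CpG dinucleotides, and in differentiated tissues lies mainly over the bodies of genes that are in use. The failing or hypertrophic adult heart is known to switch on again a set of transcripts of the fetal heart, among them the natriuretic peptides and the slow myosin heavy chain Myh7, and to lower transcripts of fatty acid oxidation. A return of 5-hmC to the newborn state would appear as peaks that were present in the neonatal lists, absent from the adult lists and present in the TAC lists.

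Reference sequences (GRCm38.p6, the assembly of mm10) show what such regions looked like. The first 4 are the middle 300 bases of regions with peaks in both neonatal and both TAC lists and in neither adult list, each read on the strand of its gene, with the CpG sites in capitals because these are the bases that can carry the mark. The region on Myh6, chr14:54965995-54966572, minus strand, spanned 578 bp over the non-coding first exon and the intron after it. The region on Xirp1, chr9:120014914-120016448, minus strand, overlapped exons 2 and 3 of 3, that on Srf, chr17:46554594-46555343, minus strand, exon 1 of 7, and that on Dlst, chr12:85129529-85130100, plus strand, exon 12 of 15. The last 3 of these overlapped coding sequence.
Myh6 (chr14:54966134-54966433): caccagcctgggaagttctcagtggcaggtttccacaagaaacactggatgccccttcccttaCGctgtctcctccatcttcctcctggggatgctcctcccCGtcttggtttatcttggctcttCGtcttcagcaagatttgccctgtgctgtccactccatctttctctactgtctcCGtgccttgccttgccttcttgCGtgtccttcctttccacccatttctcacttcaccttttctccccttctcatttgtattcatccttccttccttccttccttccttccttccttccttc
Xirp1 (chr9:120015532-120015831): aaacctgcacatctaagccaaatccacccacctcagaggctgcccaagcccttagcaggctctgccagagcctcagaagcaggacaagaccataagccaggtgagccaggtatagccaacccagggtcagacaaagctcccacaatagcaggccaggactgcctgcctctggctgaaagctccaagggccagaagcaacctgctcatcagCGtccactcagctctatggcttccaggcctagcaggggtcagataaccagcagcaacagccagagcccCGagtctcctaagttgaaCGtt
Srf (chr17:46554819-46555118): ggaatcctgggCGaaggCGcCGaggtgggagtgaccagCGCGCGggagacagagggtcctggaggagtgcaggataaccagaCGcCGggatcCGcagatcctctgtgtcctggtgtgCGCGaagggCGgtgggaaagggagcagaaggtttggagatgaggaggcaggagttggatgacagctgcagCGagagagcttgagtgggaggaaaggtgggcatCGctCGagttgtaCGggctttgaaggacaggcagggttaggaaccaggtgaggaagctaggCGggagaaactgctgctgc
Dlst (chr12:85129665-85129964): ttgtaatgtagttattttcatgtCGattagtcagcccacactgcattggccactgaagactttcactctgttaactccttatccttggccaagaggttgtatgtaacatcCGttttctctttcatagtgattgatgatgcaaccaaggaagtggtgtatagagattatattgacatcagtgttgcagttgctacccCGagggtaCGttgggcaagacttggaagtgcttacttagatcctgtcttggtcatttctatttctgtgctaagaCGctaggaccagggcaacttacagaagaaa
The Srf stretch held 17 CpG sites in 300 bases, the Myh6 and Dlst stretches 5 each and the Xirp1 stretch 3, against 0.851 CpG per 100 bases over the autosomes. The peaks of TAC replicate 1 covered all 578 bp of the Myh6 region, 813 of 1535 bp on Xirp1, 478 of 750 bp on Srf and 267 of 572 bp on Dlst. Those of TAC replicate 2 covered 55 bp at the edge of the Myh6 region, outside the stretch printed, 501 bp on Xirp1, 188 bp on Srf, also outside the stretch, and 227 bp on Dlst. What TAC replicate 2 shared with these regions was thus often only an edge.

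Regions with peaks in both neonatal lists and in no adult or TAC list are shown for Fhl2, a LIM protein of the sarcomere, and for Mybpc3, cardiac myosin binding protein C. The Fhl2 region, chr1:43168202-43169975, minus strand, was the widest of 16 such regions on the gene and lay in the intron after its first exon. The Mybpc3 region, chr2:91126450-91127377, plus strand, was the widest of 3 and had its middle in the intron after exon 20 of 35.
Fhl2 (chr1:43168939-43169238): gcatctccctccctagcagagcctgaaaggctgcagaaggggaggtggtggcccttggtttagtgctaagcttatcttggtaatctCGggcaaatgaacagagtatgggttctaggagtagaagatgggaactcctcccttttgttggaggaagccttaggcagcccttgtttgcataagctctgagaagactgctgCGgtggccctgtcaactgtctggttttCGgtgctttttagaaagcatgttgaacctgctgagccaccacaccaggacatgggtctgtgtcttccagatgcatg
Mybpc3 (chr2:91126764-91127063): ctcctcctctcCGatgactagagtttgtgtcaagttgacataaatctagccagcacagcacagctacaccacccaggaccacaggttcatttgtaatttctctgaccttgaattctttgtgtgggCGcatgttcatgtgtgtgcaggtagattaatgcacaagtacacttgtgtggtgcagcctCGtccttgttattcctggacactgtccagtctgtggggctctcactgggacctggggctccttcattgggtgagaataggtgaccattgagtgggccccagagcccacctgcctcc
The Fhl2 and Mybpc3 stretches held 3 CpG sites each.

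The neonatal lists held 137172 and 153637 peaks over 97.5 and 119 Mb, and the TAC lists 104964 and 107329 peaks over 75.1 and 65.1 Mb. The study gives a shared minimum of reads for its conditions but the number behind each list was not used here, so a difference in depth between the points was not tested. TAC replicate 2 stood apart from the other lists. The distance from a peak centre of TAC replicate 1 to the nearest peak centre of a neonatal list was most often under 100 bp, with 16.9% and 15.5% of its peaks that close, whereas for TAC replicate 2 it was most often 500 to 600 bp and only 1.80% and 2.19% of its peaks lay within 100 bp. No gene was covered over more than 53.1% of its span by the peaks of TAC replicate 2 before scaling, against 87.7% for TAC replicate 1. Results are therefore given for both TAC lists and for TAC replicate 1 alone.

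Heart genes were more often higher in the neonatal lists than all genes were, and the excess was larger against TAC replicate 2. They were also better covered, with neonatal medians of 11.9% and 12.4% against 3.85% and 3.84% for all genes. All genes included 1323 without a peak in the 4 lists, which could not be called. The part of coverage in the excess was not tested. Of 331 heart genes, 89 were higher in neonatal CMCs without overlap, 26.9%, where 13.2% of all genes were, and 51 were higher in TAC, 15.4%, where 17.9% of all genes were. With TAC replicate 1 alone, 106 heart genes lay below both neonatal lists, 32.0% against 24.9% of all genes, and 158 lay above both, 47.7% against 40.9% of all genes. With TAC replicate 2 alone, 190 lay below, 57.4% against 30.5%, and 70 lay above, 21.1% against 35.0%. Heart genes thus stood on opposite sides of the background in the 2 TAC lists for the direction higher in TAC. With the percentages left unscaled, the division of all calls changed from 57.5% higher in TAC to 17.2%, the median log2 difference of all genes moved from 0.06 to -0.41, and 17 of the 51 heart genes higher in TAC kept that call. Just inside the rule lay Acsl3, an acyl-CoA synthetase gene, with 10.4% and 9.89% in neonatal and 9.71% and 5.76% in TAC, and just outside it lay Myh7, where neonatal replicate 2 had 15.94% and TAC replicate 1 15.97%.

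**Figure D1:**
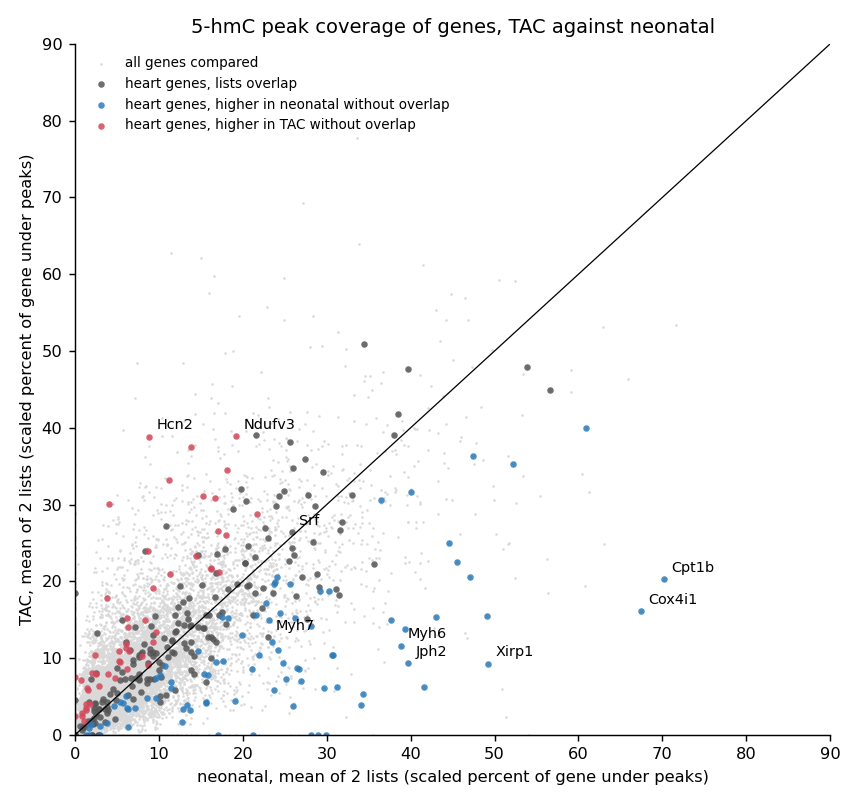
Scaled percent of each gene under peaks, mean of the 2 neonatal lists on the horizontal axis and mean of the 2 TAC lists on the vertical axis, for 15498 genes (grey) and 331 heart genes (coloured by call). The line marks equal values. Cpt1b, Cox4i1 and Xirp1 lie far below it, Hcn2 and Ndufv3 above it, and Srf, whose lists overlap, on it.

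Lists not used to make the calls placed both sets of genes. The 89 heart genes higher in neonatal had a median of 23.6% and 20.1% in the neonatal lists, 9.73% and 6.50% in the TAC lists, 10.4% and 12.2% in the adult lists and 13.02% and 8.42% in the E14.5 lists. For the 51 heart genes higher in TAC the medians were 6.80% and 5.49% in the neonatal lists, 12.8% and 10.5% in TAC, 12.6% and 13.3% in the adult lists and, at E14.5, 5.71% and 3.66%. The neonatal and TAC values chose these sets, so their medians are a description. The heart genes higher in neonatal had a median length of 28.5 kb and 1.29 CpG per 100 bases, those higher in TAC 43.4 kb and 1.14, and all heart genes 30.9 kb and 1.27.

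The share of genes higher in neonatal was above the 13.2% of all genes in each of the 7 heart lists, and also in each of 5 lists of other genes. It was highest among heart lists for the sarcomere and Z-disc, with 17 of 41 genes higher in neonatal and 2 higher in TAC, followed by calcium handling and ion channels with 13 and 8 of 42, the fetal programme with 9 and 3 of 31, and the tricarboxylic acid (TCA) cycle and respiratory chain with 16 and 9 of 57. Cardiac transcription factors had 13 and 5 of 51. Fatty acid oxidation, with 11 and 12 of 51, and hypertrophic signalling, with 11 and 12 of 59, had about as many genes in one direction as in the other. Among the other lists the counts were 10 and 4 of 49 for the cell cycle, 10 and 6 of 48 for fibroblast and matrix genes, 10 and 5 of 28 for endothelial, 4 and 1 of 11 for leukocyte and 3 and 2 of 11 for smooth muscle genes. Genes of the cell cycle and of other cell types thus also exceeded the background in neonatal. With TAC replicate 1 alone, 18 of 41 sarcomere genes lay below both neonatal lists and 17 above. With TAC replicate 2 alone, these were 29 and 4. For transcription factors they were 14 and 23, then 34 and 6. For the fetal programme they were 12 and 15, then 21 and 4. All genes had 24.9% below and 40.9% above in TAC replicate 1, and 30.5% and 35.0% in TAC replicate 2. By count, these lists leaned toward neonatal mainly in TAC replicate 2. The median difference, TAC minus neonatal, was -2.21 percentage points for the sarcomere list, 1.43 for fatty acid oxidation and 0.150 over all genes.

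**Figure D2:**
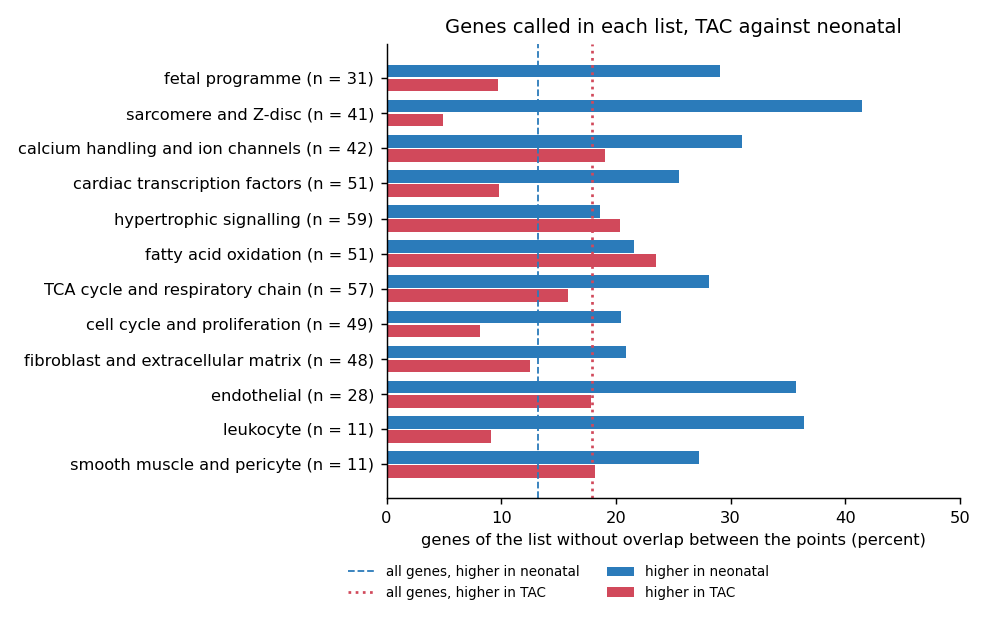
Percent of the genes of each list, on the horizontal axis, whose neonatal lists both exceeded both TAC lists (blue) or the reverse (red), with dashed and dotted lines at the same values for all genes, 13.2% and 17.9%. Blue bars pass the dashed line in all 12 lists, with the sarcomere list at 41.5%, and the longest red bars are those of fatty acid oxidation at 23.5% and hypertrophic signalling at 20.3%.

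The sarcomere list had the highest median coverage of the 7 heart lists in neonatal CMCs, 18.3% and 18.98%, against 16.8% and 9.97% in TAC. Mybpc3 had 33.7% and 34.8% in the neonatal lists, 3.25% and 7.49% in the TAC lists and 19.5% and 20.5% in the adult lists. Both TAC values lay below both adult values, and the difference from neonatal was -2.56 on the log2(scaled percent + 1) scale with a standard error of 0.47 (limma, adjusted p = 0.332). Myl3, the ventricular essential light chain, had 39.5% and 43.8% in neonatal, 9.73% and 2.73% in TAC CMCs and 13.6% and 16.3% in adult CMCs. Lmod2, an actin nucleator of the thin filament, had 35.2% and 21.02% in the neonatal lists and no peak in either TAC list or in adult replicate 2. In both genes TAC lay at or below the adult lists. Bag3, a co-chaperone that keeps Z-disc proteins in turnover, had 44.9% and 41.2% against 19.6% and 11.1% in TAC. Tnnt2, cardiac troponin T, had 26.8% and 22.7% against 11.7% and 7.05%, and its adult values of 7.37% and 11.6% lay between the TAC values. Only Pdlim7, a Z-disc scaffold with 22.8% and 20.5% against 30.6% and 26.99%, and Myot, encoding myotilin, with 2.12% and 3.48% against 4.42% and 8.29%, were higher in TAC within this list. Without scaling neither gene kept that call, and the mean of Pdlim7 was lower in TAC than in neonatal.

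Genes of calcium handling and of ion channels divided between the points. Jph2, junctophilin 2, which ties the T-tubule to the sarcoplasmic reticulum, had 39.3% and 40.2% in neonatal, 12.3% and 6.41% in TAC CMCs and 21.4% and 15.7% in adult CMCs. Atp2a2, the SERCA2 calcium pump, had 32.01% and 19.8% in neonatal against 3.24% and 4.22% in TAC, with adult values of 4.82% and 4.93%. For both genes the groups did not overlap and both TAC values lay below both adult values. The pacemaker channel Hcn2 was the reverse, with 7.02% and 10.6% in the neonatal lists, 41.3% and 36.4% in the TAC lists and 37.1% and 36.7% in the adult lists, and a mean of 8.81% ± 2.53 in neonatal against 38.9% ± 3.44 in TAC (SD, n = 2 each). It was the heart gene with the largest difference toward TAC, and its TAC and adult lists overlapped. Kcnip2, which encodes the subunit that gives the adult transient outward current, had 6.80% and 10.7% in neonatal, 24.1% and 23.9% in TAC and 16.9% and 32.8% in adult. Hcn4, a pacemaker channel that ventricular myocytes use before birth, had 5.65% and 6.66% in neonatal and 17.7% and 12.8% in TAC, and its adult values of 19.6% and 25.9% were the highest.

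Transcription factors of the heart had more coverage in the neonatal lists in 13 of 51 cases. Gata6 had 23.6% and 30.3% in neonatal, 11.9% and 2.08% in TAC CMCs and 3.55% and 9.46% in adult CMCs, and Gata4, its partner in the control of contractile genes, had 27.3% and 20.1% in neonatal, 8.62% and 2.97% in TAC and 11.8% and 13.98% in adult. Both TAC values of Gata4 lay below both adult values, while the TAC values of Gata6 lay on either side of them. Tbx20, a T-box factor of the developing chambers, had 18.6% and 12.1% against 7.21% and 8.53% in TAC. Ppara, the nuclear receptor of fatty acid use, was higher in TAC with 23.9% and 18.6% against 17.4% and 16.95%, but this direction turned without scaling. Among signalling genes Grk2, which desensitises beta-adrenergic receptors, had 21.8% and 20.1% in TAC against 13.2% and 9.34% in neonatal and 13.2% and 25.6% in the adult lists. The TAC values of Grk2 lay within the adult range. Akt1, a kinase of insulin-like growth factor signalling, had 41.2% and 49.8% in neonatal and 30.7% and 14.3% in TAC. Its adult values of 49.99% and 53.3% lay above both neonatal values. Tet2, which oxidises 5-methylcytosine to 5-hmC, had 6.93% and 8.23% in neonatal and 9.64% and 4.54% in TAC, and these lists overlapped.

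Genes of energy metabolism held the largest differences among heart genes in the neonatal direction, -51.3 percentage points for Cox4i1 and -49.9 for Cpt1b, and several in the other. Cpt1b, which admits long-chain fatty acids to the mitochondrion, had 73.2% and 67.1% in neonatal, 33.3% and 7.27% in TAC CMCs and 23.6% and 41.5% in adult CMCs. Its neonatal mean was 70.2% ± 4.33 and its TAC mean 20.3% ± 18.4 (SD, n = 2 each), so that both TAC lists were low but far apart. Cox4i1, a subunit of cytochrome c oxidase, had 70.8% and 64.1% in neonatal, 20.8% and 11.5% in TAC and 24.6% and 49.8% in adult. Atp5c1, the gamma subunit of ATP synthase, had 39.9% and 28.3% against 4.87% and 2.81% in TAC, with adult values of 9.59% and 4.82%. TAC lay below both adult lists for Cox4i1 and overlapped them for Atp5c1. Higher in TAC were Pdk2, a kinase that holds back pyruvate dehydrogenase, with 39.2% and 27.2% against 11.4% and 10.9% in neonatal. Ndufv3, a subunit of complex I, had 47.8% and 30.05% in TAC against 15.8% and 22.6%, and Acads, the short-chain acyl-CoA dehydrogenase, had 32.7% and 28.9% against 15.2% and 18.1%. Their adult values were 15.1% and 54.6% for Pdk2, 36.8% and 39.02% for Ndufv3 and 43.1% and 22.9% for Acads. For each of these 3 genes the TAC values lay within the range of the adult lists or overlapped it. Without scaling, Pdk2 kept both TAC values above both neonatal values, and Ndufv3 and Acads did not.

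**Figure D3:**
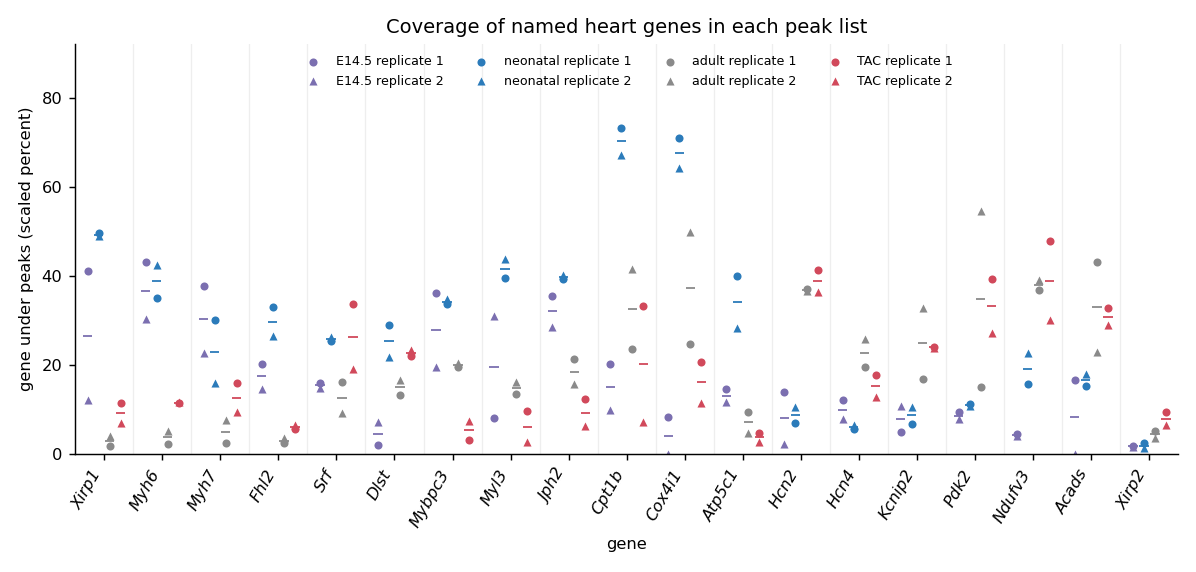
Scaled percent under peaks (vertical axis) of 19 named heart genes (horizontal axis) in each of the 8 lists, with circles for replicate 1, triangles for replicate 2 and short lines for the mean of a point. From Xirp1 to Fhl2 and from Mybpc3 to Atp5c1 the TAC points (red) lie far below the neonatal points (blue), except that Myh7 overlaps, and from Hcn2 to Xirp2 they lie above them, mostly beside the adult points (grey).

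The genes that define the fetal programme behaved in several ways. Xirp1, which encodes a repeat protein of the intercalated disc, had 49.6% and 48.9% in the neonatal lists, 11.5% and 6.99% in the TAC lists and 1.76% and 4.01% in the adult lists. The neonatal mean was 49.3% ± 0.460 and the TAC mean 9.27% ± 3.22 (SD, n = 2 each). Both TAC values lay above both adult values and far below both neonatal values, with a TAC minus neonatal difference of -2.33 on the log2 scale (SE 0.38, limma, adjusted p = 0.332). Fhl2 had the same order, with 32.96% and 26.5% in neonatal, 5.63% and 6.50% in TAC and 2.53% and 3.60% in adult. Xirp2, a second repeat protein of the same family, was higher in TAC, with 9.54% and 6.49% against 2.54% and 1.40% in neonatal, 1.86% and 1.74% at E14.5 and 5.32% and 3.77% in the adult lists. Its TAC values were thus the highest of the 4 points. Ankrd1, a stretch-responsive protein of the titin complex, had 24.8% and 25.5% in neonatal and 0% and 14.6% in TAC, but with 5 kb on each side of the gene the difference took the opposite sign. Tnni1, the slow skeletal troponin I of the fetal heart, had 17.05% and 10.3% in neonatal, 22.2% and 6.08% in TAC and 47.5% and 28.7% in adult, and Myl4, the atrial light chain, had 8.999% and 15.5% in neonatal and 19.99% and 13.3% in TAC, beside adult values of 19.03% and 18.2%. In both genes the neonatal and TAC lists overlapped.

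Myh7 and Myh6, the slow and fast myosin heavy chains, lie in tandem at chr14:54970684-54994626 and chr14:54941921-54966607 (mm10, minus strand). Myh7 had 37.8% and 22.7% in the E14.5 lists, 30.03% and 15.9% in the neonatal, 15.97% and 9.41% in the TAC lists and 2.45% and 7.70% in the adult lists. On this scale both TAC values lay above both adult values, and TAC replicate 1 was level with the lower neonatal value. Without scaling, the TAC lists had 13.4% and 6.85% and the adult lists 2.09% and 8.37% of Myh7, so that TAC replicate 2 lay below adult replicate 2 and the order of Myh7 rested on the scaling. Myh6 had 43.1% and 30.2% in the E14.5 lists, 35.1% and 42.5% in the neonatal, 11.5% and 11.7% in the TAC lists and 2.38% and 5.20% in the adult lists, a difference from neonatal of -1.65 on the log2 scale (SE 0.32, limma, adjusted p = 0.34). Both TAC values of Myh6 lay above both adult and below both neonatal values, and without scaling, at 9.65% and 8.54% in TAC, 2.03% and 5.65% in adult and 38.3% and 56.5% in neonatal, this held. Counted by the bases inside the gene, on Myh7 TAC replicate 1 had 5 peaks over 3214 bp and TAC replicate 2 had 4 over 1641 bp, the adult lists 1 over 501 bp and 4 over 2004 bp, and the neonatal lists 8 over 7844 bp and 6 over 5069 bp. On Myh6, the TAC lists had 3 peaks each over 2383 and 2108 bp, the adult lists 1 over 501 bp and 2 over 1394 bp, and the neonatal lists 7 over 9460 bp and 8 over 13940 bp. The region at the start of Myh6, shown above, was the only part of either gene with a peak in both TAC lists, both neonatal lists and neither adult list. Upstream of Myh7, outside both genes, the TAC lists overlapped near -9 kb, where no neonatal or adult list had a peak. E14.5 replicate 2 had a peak there, from -10.15 to -8.59 kb, and E14.5 replicate 1 had none. The TAC lists overlapped again near -6 kb, partly under both neonatal lists, beside an adult replicate 1 peak that ended at -6.52 kb. The study reports a hydroxymethylated enhancer upstream of Myh7 in hypertrophy, whose place was not compared here.

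**Figure D4:**
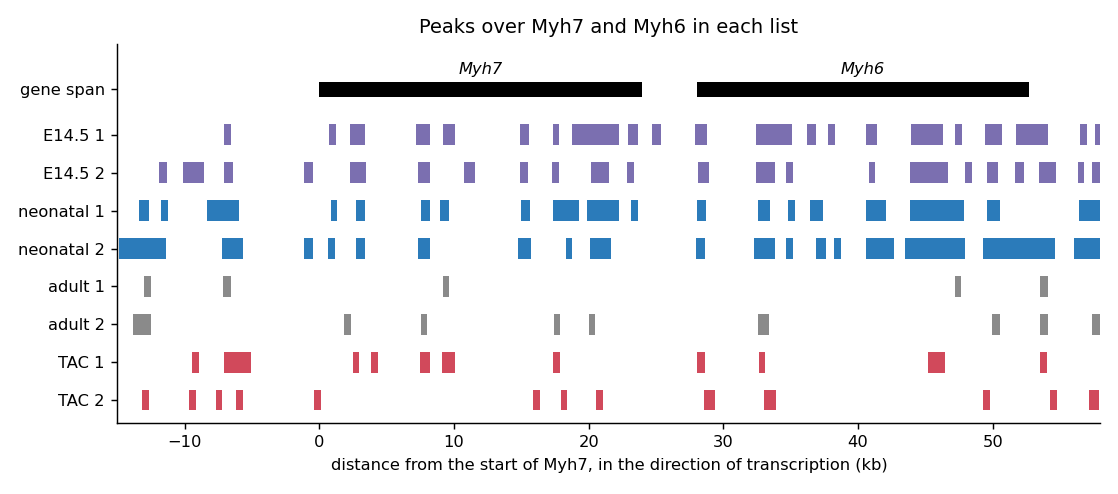
Peaks (coloured bars) in each of the 8 lists over Myh7 and Myh6, drawn by distance in kb from the start of Myh7 in the direction of transcription, with the gene spans in black. The neonatal lists cover long stretches of both genes, the adult lists hold isolated short peaks, and both TAC lists hold a peak at or next to the start of Myh6 where no adult list has one. Upstream of Myh7 the TAC lists also overlap each other outside the adult peaks, near -9 kb, where E14.5 replicate 2 has a peak, and near -6 kb.

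A return can be seen only on genes with less coverage in the adult than in the newborn. The neonatal and the TAC lists were each set against the same 2 adult lists, which these comparisons share. Over all genes, 2264 had both neonatal values above both adult values, 14.6%, among them 75 heart genes. A gene of this set was taken as covered again when both TAC values exceeded both adult values and as not covered again when both lay below both neonatal values, and since the adult and neonatal lists both chose the set and entered the counts, these are a description. Of the 75 heart genes, 16 were covered again, 21.3%, against 33.9% of all genes in the set, and 50 were not, 66.7% against 42.4%. 4 genes met both conditions and so lay in between (Xirp1, Myh6, Fhl2 and the acyl-CoA synthetase gene Acsl5), and 13 met neither. With TAC replicate 1 alone, 34 lay above both adult lists, 45.3% against 49.1% of all genes in the set, and 57 lay below both neonatal lists, 76.0% against 74.2%. In that list the heart genes lay near the background on both counts.

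The 12 heart genes that were covered again and not below neonatal were of mixed function. Dlst, a subunit of the oxoglutarate dehydrogenase complex of the TCA cycle, had 29.1% and 21.9% in neonatal, 22.04% and 23.3% in TAC CMCs and 13.3% and 16.7% in adult CMCs. Srf, the serum response factor that drives muscle genes with myocardin, had 25.5% and 26.2% in neonatal, 33.7% and 19.1% in TAC and 16.2% and 9.24% in adult. Both TAC values of Dlst passed the lower neonatal value, while those of Srf lay on either side of the neonatal values. Myot had 4.42% and 8.29% in TAC against no peak in the adult lists and 2.12% and 3.48% in neonatal. Other members were Myh7, the natriuretic peptide clearance receptor Npr3, the complex I subunit Ndufv2, the neuregulin receptor Erbb4, the channel genes Cacna1d and Kcnd2, the kinase gene Prkg1 and Pik3cg. In Erbb4, Pik3cg, Cacna1d, Npr3, Myot, Prkg1 and Kcnd2 no neonatal value exceeded 5.44%. Without scaling, 8 of the 16 genes covered again still had both TAC values above both adult values (Myh6, Xirp1, Fhl2, Srf, Myot, Erbb4, Kcnd2 and Pik3cg), and Myh7 and Dlst did not.

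The 46 heart genes that were below neonatal and not above adult included Ankrd1, Gata6, Tbx3, Igf2bp3, Ednrb, Camk4, Mybpc3, Myl3, Myl2, Tnnt2, Tpm1, Jph2, Atp2a2, Slc8a1, Cpt1b, Cox4i1 and Atp5c1. Some had barely fallen in the adult. The lower neonatal and the higher adult value were 1.562% and 1.544% for Ednrb, and 12.81% and 12.72% for Tbx3. Tpm1, alpha-tropomyosin, had 58.1% and 40.04% in neonatal, 19.9% and 11.01% in TAC and 23.9% and 22.97% in adult. Myl2, the ventricular regulatory light chain, had 23.3% and 23.6% in neonatal and 12.2% and 12.01% in TAC, beside adult values of 10.05% and 15.1%. Slc8a1, the sodium-calcium exchanger, had 19.2% and 14.4% in neonatal, 10.7% and 8.35% in TAC and 12.2% and 11.1% in adult. In TAC replicate 1 alone, 41 of the 75 genes lay below both neonatal lists and not above both adult lists, 18 lay above both adult lists and not below both neonatal lists, and 16 met both conditions. Ttn, titin, was one that the TAC lists divided, with 34.5% in TAC replicate 1 and 9.97% in TAC replicate 2 against 39.5% and 31.9% in neonatal and 31.8% and 25.8% in adult CMCs.

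A gene or region that is missing from one list can be present in another of the same kind, so the second adult list was used as the measure of what a return must exceed. Of 103 heart genes whose neonatal values both exceeded adult replicate 1, adult replicate 2 lay below both neonatal values in 72.8%, TAC replicate 1 in 68.9% and TAC replicate 2 in 79.6%. Of 107 heart genes whose neonatal values exceeded adult replicate 2, adult replicate 1 lay below in 70.1%, TAC replicate 1 in 65.4% and TAC replicate 2 in 77.6%. TAC replicate 1 thus differed from an adult list by under 5 percentage points, in the direction of neonatal, and TAC replicate 2 lay further from neonatal than an adult list did. Over all genes the same shares were 58.6%, 60.8% and 50.7% of 3865 genes and 62.1%, 62.9% and 53.7% of 3645 genes, with the order of the 2 TAC lists reversed.

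Peak regions gave the same comparison without genes. Of 37239 autosomal regions common to both neonatal lists and absent from adult replicate 1, adult replicate 2 held a peak on 37.2%, TAC replicate 1 on 32.4% and TAC replicate 2 on 17.3%. Of 34057 absent from adult replicate 2, adult replicate 1 held a peak on 31.3%, TAC replicate 1 on 31.4% and TAC replicate 2 on 13.2%. The E14.5 lists held 52.4% and 63.5% of the first set and 52.6% and 61.3% of the second. On heart genes, adult replicate 2 held 41.2%, TAC replicate 1 held 35.2% and TAC replicate 2 held 18.02% of 1154 regions, and adult replicate 1 held 36.3%, TAC replicate 1 held 33.7% and TAC replicate 2 held 12.8% of 1065. Neonatal regions that were missing from an adult list were thus found in the TAC lists no more often than in the second adult list, apart from a surplus of 0.103 percentage points for TAC replicate 1 in the second set. With a peak within 1 kb counted, TAC replicate 2 held 35.4% and 30.5% and the adult lists 43.6% and 36.8%, so the shortfall of TAC replicate 2 was smaller when its displaced peaks were allowed for. The lists differ in total length, and with equal numbers of peaks drawn from each list TAC replicate 1 held 31.8% and 33.6% of the 2 sets and the second adult list 32.1% and 34.4%.

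**Figure D5:**
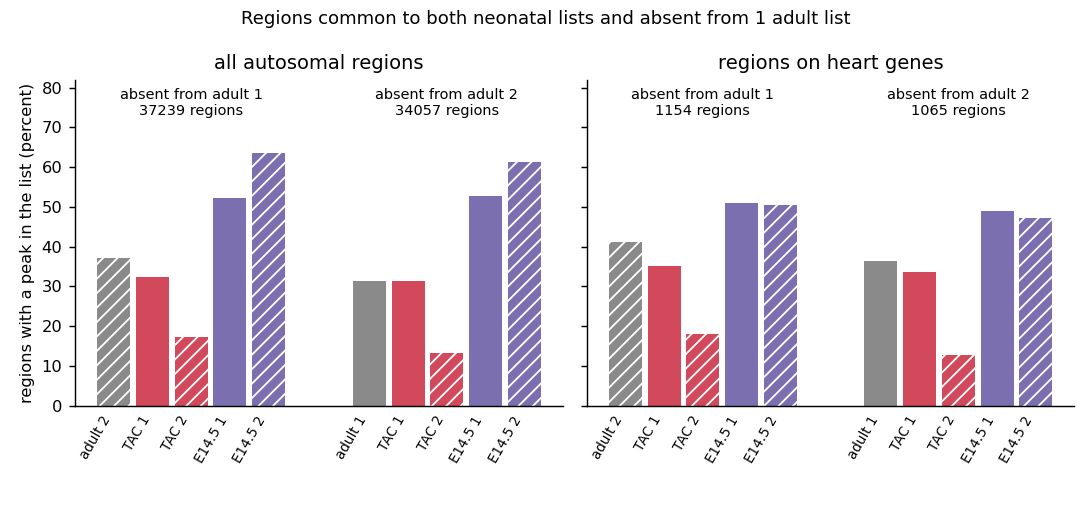
Percent of regions (vertical axis) that hold a peak in the list named under each bar, for regions common to both neonatal lists and absent from 1 adult list, over all autosomes (left) and on heart genes (right). TAC replicate 1 (plain red) lies at 31.4% to 35.2%, level with the second adult list (grey) only where that list is at 31.3% and below it at 37.2%, 41.2% and 36.3%, TAC replicate 2 (hatched red) reaches 12.8% to 18.02%, and the E14.5 bars (purple) are higher.

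Of 2397 common neonatal regions on heart genes, 678 held no adult peak. Of these, 36 on 29 genes held a peak in both TAC lists, 137 in TAC replicate 1 only, 40 in TAC replicate 2 only and 465 in neither. The 36 lay, beside Myh6, Xirp1, Srf and Dlst, on Ttn, on the thin filament cap gene Tmod1, on the calcium release channel Ryr2 (2 regions), on the growth factor receptor Igf1r (3 regions), on Gsk3b (3 regions) and on genes for the transcription factors Mef2c, Tbx5, Foxp1 and Zfpm2, among others. Both E14.5 lists held a peak on 24 of the 36, 66.7%, and on 113 of the 465 without a TAC peak, 24.3%. Exons were touched by 22.2% of the 36 and by 14.8% of the 465, and the median CpG content was 1.39 and 1.27 per 100 bases. The 36 were wider, with a median of 590.5 bp against 500 bp. A high E14.5 share was not particular to the 36. Of 267 common regions with peaks in both adult and both TAC lists, both E14.5 lists held 167, 62.5%. Exons were touched by 31.1% of these 267, and their median CpG content was 1.89 per 100 bases. The peaks of TAC replicate 1 covered a median of 83.1% of the length of the 36 regions and those of TAC replicate 2 a median of 23.5%, and at least 50% of the region in 28 and 7 of them. Ryr2 had 19 of its 28 regions without an adult peak left without a TAC peak, and Fhl2 16 of 19. When a peak within 1 kb counted for all lists, 402 regions had no adult peak, of which 46 had both TAC lists near, 11.4%, and 216 had neither, 53.7%.

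A few heart genes had peaks at only one of the points. Of 304 heart genes with a peak in both neonatal lists, 8 had no peak in either TAC list, 2.63%, against 4.05% of all such genes. They were the ATP synthase genes Atp5b and Atp5o, Cox5a of cytochrome c oxidase, the fatty acid binding protein gene Fabp3, Lmod2, Myl1, Ednrb and Acad10. Atp5b had 16.4% and 25.9% and Cox5a 14.7% and 19.3% in the neonatal lists and neither had a peak in the adult lists, whereas Atp5o had 43.7% and 58.8% in the adult lists. Conversely, 2 of 8 heart genes with no neonatal peak had a peak in both TAC lists, where 10% of all such genes did. Echs1, the enoyl-CoA hydratase of fatty acid oxidation, had 5.57% and 9.45% in TAC and 15.6% and 5.40% in the adult lists, and Acad9, an assembly factor of complex I, had 2.22% and 2.56% in TAC and 2.18% and 1.72% in the adult lists.

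The classic markers of the fetal programme are short and were followed with 5 kb on each side, since a single peak fills much of such a gene. With these flanks Nppa, the atrial natriuretic peptide gene, had 14.4% and 11.5% in neonatal, 21.6% and 0% in TAC and 7.92% and 10.6% in adult CMCs. Nppb, the brain natriuretic peptide gene, had 10.7% and 6.79% in neonatal and 0% and 14.3% in TAC, beside adult values of 5.19% and 21.2%. In both genes 1 TAC list was at 0 and the other was the highest or second highest of these 6 lists. Acta1, skeletal alpha-actin, had 4.66% and 2.90% in neonatal, 0% and 10.2% in adult and no peak in TAC. Tnni3, the adult cardiac troponin I, had 37.2% and 30.6% in neonatal and 18.97% and 39.2% in TAC, and Ccn2, a matricellular protein raised in fibrosis, had 7.84% and 38.3% in neonatal and 9.32% and 11.8% in TAC. A return of 5-hmC to these genes was not detectable with 2 lists that differ this much.

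Over all genes, the largest gaps in the neonatal direction were those of Cish, an inhibitor of cytokine signalling, and of Perm1, a muscle regulator of oxidative metabolism. Cish had 53.6% and 54.6% in neonatal, 9.59% and 0% in adult and no peak in TAC, and Perm1 had 49.8% and 52.98% in neonatal and 4.56% and 0% in TAC, beside adult values of 4.25% and 12.4%. In the TAC direction the largest were Hhatl, with 84.9% and 70.5% in TAC and 33.9% and 33.4% in neonatal, Rab1b, a GTPase of vesicle traffic, with 52.3% and 44.7% in TAC against 5.89% and 8.88%, and Mul1, a mitochondrial ubiquitin ligase, with 68.3% and 57.4% in TAC against 22.8% and 0%. The adult values were 19.1% and 73.4% for Hhatl, 22.9% and 37.5% for Rab1b and 75.1% and 72.7% for Mul1.

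Markers of other cell types were compared because each preparation could hold other cells. The 7 CMC markers had peaks in all lists, with a median of 30.1% and 26.1% in neonatal and 13.1% and 9.97% in TAC CMCs, lower in TAC like the sarcomere genes to which most of them belong. The 8 fibroblast markers had a median of 1.64% and 1.004% in neonatal and 0% and 0.957% in TAC, the 7 endothelial markers 5.25% and 6.39% against 4.83% and 4.86%, and the 4 leukocyte markers 2.28% and 3.32% against 1.17% and 0.918%. The 5 smooth muscle and pericyte markers had 4.83% and 3.78% in neonatal and 4.56% and 3.84% in TAC. Of the fibroblast markers 5 had a peak in each neonatal list and 3 and 4 in the TAC lists, and Col3a1 had none in any of the 4. All 4 leukocyte markers had a peak in the neonatal lists and 2 in each TAC list, with Adgre1, which encodes F4/80, at 0 in both TAC lists. The endothelial markers had peaks in all 7 cases in neonatal replicate 1 and both TAC lists and in 6 in neonatal replicate 2. Fewer CMCs in a preparation and less 5-hmC in each CMC cannot be told apart in these bulk samples, and the part of cell composition in the differences above was not tested.

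Across 15498 genes, Pearson's r of the scaled percent between TAC replicate 1 and the adult lists was 0.774 and 0.798, and between it and the neonatal lists 0.70 and 0.714. For TAC replicate 2 it was 0.609 and 0.656 with the adult and 0.570 and 0.590 with the neonatal lists. Between the 2 TAC lists it was 0.614, below each value of TAC replicate 1 with an adult or a neonatal list. These values describe lists that share gene length and CpG content, and genes are not independent replicates. Over the 331 heart genes, TAC replicate 1 had 0.736 and 0.777 with the adult and 0.530 and 0.595 with the neonatal lists. TAC replicate 2 had 0.646 and 0.695 with the adult and 0.384 and 0.520 with the neonatal lists. The 2 TAC lists had 0.640 with each other over these genes. By Spearman's rho over all genes, TAC replicate 1 had 0.727 and 0.743 with the adult and 0.662 and 0.666 with the neonatal lists. TAC replicate 2 had 0.557 and 0.606 with the adult and 0.557 and 0.570 with the neonatal lists. Between the 2 TAC lists rho was 0.562. TAC replicate 1 was thus closer to both adult lists by either measure, while for TAC replicate 2 the ranks did not place both adult lists above both neonatal lists.

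No single gene could be called different by a test with these samples. In a limma fit of log2(scaled percent + 1) over 14175 genes with a peak in at least 1 of the 4 lists, 0.0% passed an adjusted p of 0.05 in either direction, and the smallest adjusted p was 0.332. At an unadjusted p under 0.05, 459 genes were lower in TAC, 3.24%, and 522 higher, 3.68%. Of 327 heart genes in the fit, 26 were lower and 11 higher at that level. An exact two-sided permutation test of 2 lists against 2 cannot give a p below 0.333, and although the study describes the 2 lists of a point as biological replicates, p-values measure only the spread between these 2.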

How the data were processed

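5-hmC was measured by immunoprecipitation of hydroxymethylated DNA and sequencing (hMeDIP-seq) with an input control, in 2 samples for each of E14.5, neonatal, adult and TAC CMCs. According to the methods and the submitters' processing notes, the authors aligned reads to mm10 with BWA (0.7.4-r385), marked duplicates with Picard, filtered on mapping quality, and ran HOMER in its histone mode on each replicate with its input as control. The deposited lists give each peak's position, and the score column deposited by the authors is constant, so peaks could not be ranked. The study gives a shared minimum of reads for its conditions, and the number behind each list was not used here. It describes the 2 samples of each point as biological replicates.

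Peaks were merged per list, and the percent of each RefSeq gene span (GRCm38.p6) under peaks was multiplied by the mean total peak length of the 8 lists, 89.3 Mb, over that of the list, with factors of 0.917 and 0.753 for the neonatal and 1.19 and 1.37 for the TAC lists. Genes on autosomes of at least 5 kb entered. A common region was the overlap of both neonatal lists, and it held a peak of another list when at least 1 bp overlapped. The limma fit (version 3.58.1, R 4.3.3) used log2(scaled percent + 1), a pseudocount of 1, a mean-variance trend and Benjamini-Hochberg adjustment, and left out 1323 genes without a peak in the 4 lists. On simulated data, it recovered 11% of genes with a log2 change of 2 and 85% of those with a change of 4. The simulation gave every gene the median spread of the real data and moved only better covered genes. Spread differs between the real genes, so these shares do not tell what the fit could find in the real lists. Interval code (Python 3.11.15, numpy 2.4.6, pandas 2.3.3) was tested against bedtools 2.31.1. The deviations of same-numbered neonatal and TAC lists had a correlation of 0.0224, so these samples were not treated as pairs. TAC replicate 2 was displaced, which limits this check. Same-numbered lists of other points could lie closer. Of neonatal replicate 2 peaks, 40.9% lay within 100 bp of an E14.5 replicate 2 peak and 18.8% of a neonatal replicate 1 peak. For adult replicate 2 the shares were 17.8% with neonatal replicate 2 and 12.2% with adult replicate 1. What such lists shared was not tested.

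Genes were named by these rules: 13 genes named whatever their values, the 8 heart genes and the 3 of all genes with the largest gap in each direction, the 6 covered again and the 6 not covered again with the largest gaps, and examples from the lists. Some genes that these rules pick are not reported here. The members, lists and rules were chosen with earlier results of these data known. Alternatives covered the scaling, gene length, flanks, equal peak numbers, a coverage minimum of 1%, a gap of 1 percentage point, pseudocounts of 0.5 and 2, the overlap rule and each replicate left out. The class of each heart-gene region with a peak within 1 kb was added after the data were seen. Expression data of the series were not used here.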

Additional observations from a re-analysis of the deposited data

How the results depend on the processing

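The number of reads behind each list was not used here, each point had 2 lists, and TAC replicate 2 was displaced against the others. Without scaling, the counts were 4353 genes higher in neonatal and 907 in TAC, among heart genes 161 and 17, with 8 covered again and 90 not, and all 2049 genes higher in neonatal kept their call against 907 of the 2775 higher in TAC. With a gap of at least 1 percentage point, 1345 and 1840 genes were counted. Leaving out 1 list at a time gave 3614 to 4731 genes higher in neonatal, 4032 to 6335 higher in TAC, 106 to 190 and 70 to 158 heart genes, 17 to 34 heart genes covered again and 57 to 83 not. Such counts can only grow, because 3 lists are easier to separate than 4, and passed 1.5 times the reported ones in these cases. For all genes higher in neonatal this was so without neonatal replicate 1 (3614) or 2 (3622) and without TAC replicate 1 (4731) or 2 (3864), and for all genes higher in TAC without TAC replicate 1 (5428) or 2 (6335). For heart genes it was so for those higher in neonatal without TAC replicate 1 (190), those higher in TAC without neonatal replicate 1 (80) or 2 (80) or TAC replicate 2 (158), those covered again without TAC replicate 1 (27) or 2 (34), and those not covered again without neonatal replicate 2 (83). The share of regions with a peak in TAC replicate 1, minus that in the second adult list, was -2.35 percentage points and turned to 0.103 when adult replicate 2 was the list without the region (range over lists left out -4.81 to 0.103), and it was -0.574 with equal peak numbers and -4.35 on heart genes. For TAC replicate 2 it was -19.03, and -26.3 with 50% of the region overlapped, -7.28 within 1 kb, -8.82 for peaks of either neonatal list, -23.4 on heart genes, -17.7 with equal peak numbers and -19.9 to -9.74 with lists left out, -11.8 without neonatal replicate 2 among them. The cause of these shifts was not tested. Ankrd1 had a difference of 1.64 percentage points with 5 kb flanks and Ppara of -3.97 without scaling, both against their reported direction. limma called 0 genes under each alternative, with a smallest adjusted p of 0.0508 when all 8 lists were fitted. With a replicate block, the smallest adjusted p was 0.706 and 381 genes were lower and 488 higher at an unadjusted p under 0.05. The block pairs neonatal and TAC lists by replicate number alone.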
